A study of Homo sapiens with 18 samples.

Results

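Gene expression of DCIS.COM and SUM225 MIND xenografts was compared at 6 weeks after injection, with 3 arrays of SUM225 set against 3 arrays of DCIS.COM. These 6 arrays of the 18 in the series were chosen by their labels for cell line and time, not by any measured value. In the mouse intraductal (MIND) model, human cells from ductal carcinoma in situ (DCIS) are injected through the nipple into the milk ducts of female NOD-SCID IL2Rgamma null mice, which lack T, B and NK cells, and grow there as lesions that resemble DCIS. Both groups therefore shared the host strain, the route and the time of 6 weeks, and differed in the injected line, which the labels spell DCIS.com and SUM225. Glands were digested, EpCAM-positive epithelial cells were selected with magnetic beads against the human protein, and each array was made from the total RNA of the cells of 5 mice. Each group is 1 established cell line, so the comparison describes these 2 lines and not the tumor classes they stand for, and injection, tumor growth and sorting cannot be told apart from the line.

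Breast epithelium has an inner luminal layer, which carries keratins such as K8, K18 and K19 and secretes milk, and an outer basal layer, which carries K5 and K14 and rests on the basement membrane through hemidesmosomes. DCIS.COM is a basal-like line without estrogen receptor (ER), progesterone receptor (PR) or HER2 overexpression that descends from HRAS-transformed MCF10A cells. SUM225 is ER negative and PR negative and overexpresses HER2, the receptor encoded by ERBB2 on the long arm of chromosome 17, a region that is amplified as a block in HER2-positive tumors. HER2 has no ligand of its own and signals in pairs with EGFR, ERBB3 and ERBB4, which bind the EGF and neuregulin ligands.

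At 6 weeks the lines differed widely, and in both directions alike. Of 54613 probe sets, limma with a Benjamini-Hochberg adjusted p under 0.05 called 8406 higher and 7827 lower in SUM225 (29.7%), and 3050 and 3293 of them differed by at least 2-fold (11.6%). With 1 probe set for each of 19107 genes, 3776 were higher and 3297 lower, which is 37.0% of genes called, 19.8% higher and 17.3% lower. Genes here and below are those named in the authors' lists of changes from 2 to 6 weeks, which leave 16909 probe sets out. Shares and counts of genes are therefore not those of an unfiltered set. The probe set with the highest mean level represents its gene, and the values below are of that one unless another is named. At least 2-fold differences were called for 1459 and 1449 genes, 15.2% of all. The difference of the median gene was 0.02 on the log2 scale and the median size of a difference was 0.24, while 62 genes differed by 5 or more. The 3 arrays of one line did not overlap those of the other for 48.8% of genes.

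All values are RMA levels on the log2 scale, a measure of probe brightness that has no fixed unit, so that a difference of 1 is a 2-fold difference. Over the 6 arrays the median value was 5.47 and the lowest 10% of values lay under 3.11. Detection calls were not used here, so a gene listed at 3 to 4 may be at background and its fold change may be understated. Arrays of one line correlated at 0.988 to 0.994 and arrays of different lines at 0.92 to 0.931, over all probe sets. The array medians lay between 5.42 and 5.51. The labels call the replicates biological, and their number limits the precision: an exact permutation test of 3 arrays against 3 cannot go below p = 0.1, and the adjusted p-values rest on the variance shared across all probe sets.

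By their representative probe sets, the genes with the highest contrast toward SUM225 were 3 cancer-testis antigens of the MAGE-A family, which are normally silent outside the germ line and are read from the X chromosome. MAGEA6 was at 12.58, 12.48 and 12.46 in the 3 SUM225 arrays and at 4.15, 4.35 and 3.80 in the 3 DCIS.COM arrays. It was higher in SUM225 by 8.41 ± 0.14 (SE) on the log2 scale, 339-fold, with an adjusted p of 2.06e-09 in limma. MAGEA3, at 13.22, 13.12 and 13.06 against 4.81, 5.29 and 4.92, was higher by 8.12, and MAGEA12, at 11.76, 11.60 and 11.33 against 3.64, 3.57 and 3.35, by 8.05. All 3 genes were under the median level of 5.47 in every DCIS.COM array and above the 95th percentile of 9.62 in every SUM225 array. Of 23 measured genes with a symbol starting with MAGE, 13 were higher and 0 lower in SUM225, beside 19.8% and 17.3% of all genes. Of these 13, 8 were numbered MAGEA genes, close relatives that may not be separate measurements. This family was singled out after its values had been seen. MAGEA1 was higher by 5.38 and CTAG2, another cancer-testis antigen of the X chromosome, by 5.09, whereas MAGEA4 reached only 4.51 in SUM225 from 3.27 in DCIS.COM.

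The RefSeq promoter windows of the 3 leading MAGE genes (GRCh38.p14, from 250 bases before to 50 bases after a transcription start) are shown because the genes were high together. CG dinucleotides, the sites of DNA methylation, are in capitals, and each window is read 5′ to 3′ on the strand of its gene.
MAGEA3, chrX:152698544-152698843, plus strand: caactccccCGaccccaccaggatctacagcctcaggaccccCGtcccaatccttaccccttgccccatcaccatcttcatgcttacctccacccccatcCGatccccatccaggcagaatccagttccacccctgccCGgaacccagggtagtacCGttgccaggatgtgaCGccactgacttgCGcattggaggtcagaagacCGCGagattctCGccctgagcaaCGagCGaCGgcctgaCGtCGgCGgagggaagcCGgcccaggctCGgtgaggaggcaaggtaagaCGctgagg
MAGEA6, chrX:152769640-152769939, minus strand: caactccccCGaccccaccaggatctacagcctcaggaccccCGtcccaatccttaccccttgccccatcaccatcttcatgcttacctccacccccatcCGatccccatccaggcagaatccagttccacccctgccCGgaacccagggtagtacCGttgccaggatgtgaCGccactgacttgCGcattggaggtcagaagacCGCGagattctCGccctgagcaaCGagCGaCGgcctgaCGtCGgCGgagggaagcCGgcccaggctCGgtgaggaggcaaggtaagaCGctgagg
MAGEA12, chrX:152733612-152733911, plus strand, the second of 2 windows: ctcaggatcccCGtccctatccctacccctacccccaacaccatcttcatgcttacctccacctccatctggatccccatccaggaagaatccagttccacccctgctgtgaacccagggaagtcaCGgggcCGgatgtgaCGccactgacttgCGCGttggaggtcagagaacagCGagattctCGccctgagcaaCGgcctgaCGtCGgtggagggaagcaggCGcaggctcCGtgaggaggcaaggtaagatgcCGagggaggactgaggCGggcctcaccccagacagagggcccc
The MAGEA3 and MAGEA6 windows were identical over all 300 bases, and the MAGEA12 window matched them at 234 of 261 aligned bases (89.7%). The windows held 19, 19 and 15 CG dinucleotides, against a median of 14 over the 35116 windows of the table. These windows lie mostly before the transcripts. How far the array's probes tell the transcripts of these close relatives apart was not tested, so the 3 values may not be separate measurements.

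Behind the MAGE genes came genes of several other kinds. TOX3, a chromatin protein whose locus is linked to breast cancer risk, was at 11.77, 11.65 and 11.58 in SUM225 and 3.52, 4.24 and 3.64 in DCIS.COM, a difference of 7.87 ± 0.18. MUCL1, a small mucin made mainly in breast tissue, was at 14.05, 14.09 and 14.10 against 6.66, 6.92 and 6.30, higher by 7.45 ± 0.15 and close to the top of the scale in SUM225. KRT19, the keratin of the luminal layer, lay between 11.92 and 12.27 in SUM225 and was at 6.13, 5.83 and 6.24 in DCIS.COM. Its difference of 6.00 ± 0.14 is 63.8-fold. Further genes among the 15 largest were SLC2A10, a glucose transporter (7.23), TFPI2, an inhibitor of serine proteases (6.93), PEG3, an imprinted zinc finger gene expressed from the paternal allele (6.62), BEX4 (6.75) and ARMCX3 (6.43) of the X chromosome, WDR72 (6.90), CEP15 (6.50), NXPH1 (6.01) and CRISP3, a secreted cysteine-rich protein (5.91), all given as SUM225 minus DCIS.COM on the log2 scale.

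In the other direction, by the representative probe sets, the highest contrast was that of MYBPC1, a myosin-binding protein of slow muscle. It was at 12.14, 12.55 and 12.49 in the DCIS.COM arrays and 4.39, 4.67 and 4.41 in the SUM225 arrays, higher in DCIS.COM by 7.90 ± 0.14 (239-fold, adjusted p = 2.06e-09). NTRK2, the receptor of the growth factor BDNF, was at 9.33, 9.70 and 9.87 against 2.80, 2.75 and 2.70, and PTGS2, the inducible cyclooxygenase, at 9.98, 9.23 and 9.26 against 2.88, 2.72 and 2.93. The SUM225 arrays of NTRK2 and PTGS2 lay under 3, at the bottom of the scale. KRT15, a keratin of basal progenitors, was at 13.30, 13.40 and 13.49 against 7.28, 6.56 and 6.87 and was higher in DCIS.COM by 6.49 ± 0.17. SFRP1, a secreted antagonist of Wnt signaling, was at 12.63, 12.87 and 12.84 against 6.94, 6.55 and 6.36, higher by 6.16 ± 0.16. FOXC1, a transcription factor used as a marker of basal-like breast cancer, was at 10.98, 11.18 and 11.39 against 5.10, 5.61 and 4.95, higher by 5.96 ± 0.18. The desmosomal cadherin DSC3 (6.34), the GABA receptor subunit GABRP (6.24), the cadherin CDH19 (6.64), the deubiquitinase YOD1 (6.57), the neuropeptide Y receptor NPY1R (6.55), the adaptor SHC4 (5.79), the gap junction protein GJA1 (5.75), xanthine dehydrogenase XDH (5.75) and C16orf54 (5.76) made up the rest of the 15 named genes higher in DCIS.COM, as DCIS.COM minus SUM225.

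**Figure D1:**
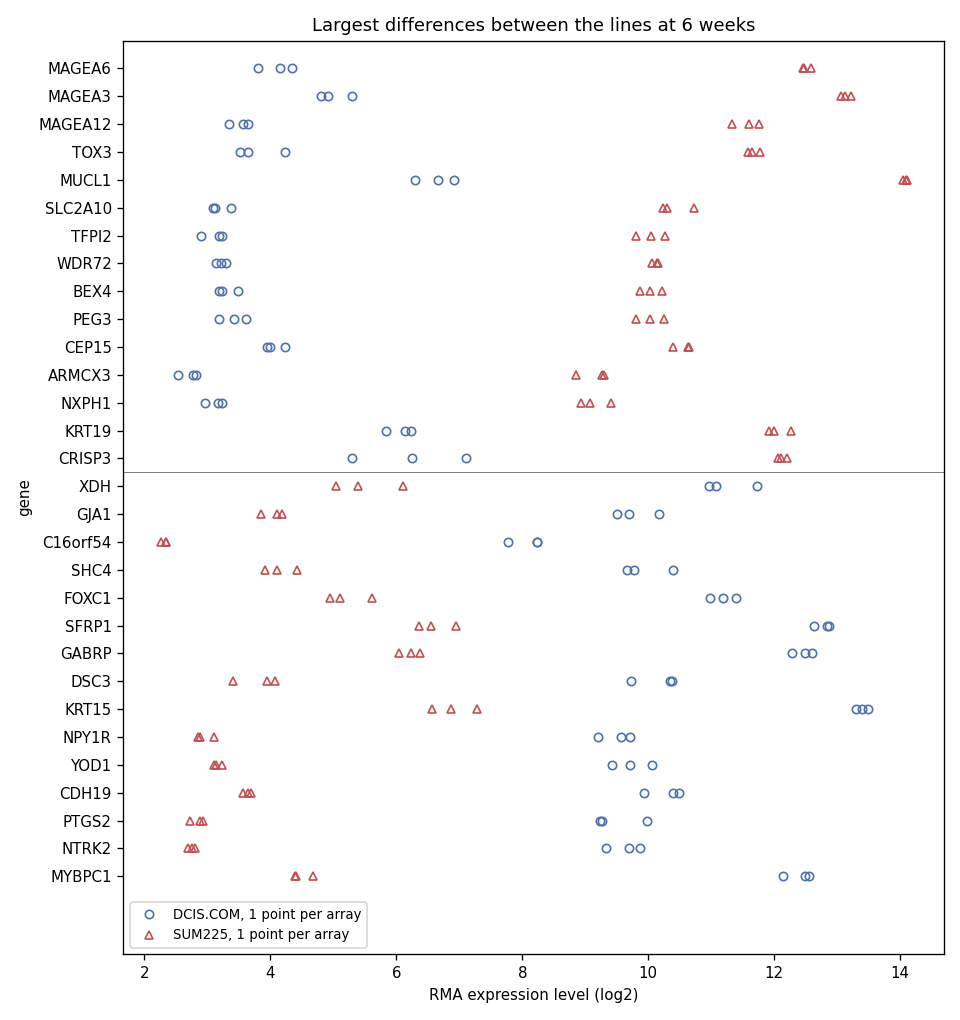
RMA level on the log2 scale (x axis) in each of the 6 arrays for the 15 genes with the largest differences in each direction (y axis), with circles for DCIS.COM and triangles for SUM225. The 3 arrays of a line stay close together in each gene, and no gene has arrays of the lines that overlap, which the choice of these genes required.

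On chromosome 17, 6 genes around ERBB2 were far higher in SUM225 and most of their neighbors, read by their representative probe sets, were not. ERBB2 was at 12.59, 12.59 and 12.68 in SUM225 and 9.14, 9.31 and 9.13 in DCIS.COM, higher by 3.43 ± 0.11 (10.8-fold, limma adjusted p = 2.97e-08). Its other 2 named probe sets differed by 4.13 and 5.69. GRB7, an adaptor that binds HER2, was at 12.45, 12.54 and 12.60 against 7.64, 7.55 and 7.94, and MIEN1, its neighbor, at 14.13, 13.91 and 14.05 against 9.78, 9.04 and 9.66. PGAP3, which remodels lipid anchors of membrane proteins, had the largest difference of the region among the representative probe sets, at 12.69, 12.76 and 12.98 against 7.61, 7.55 and 7.54, higher by 5.24 ± 0.11. STARD3, a cholesterol-binding protein of endosomes, was higher by 4.36 and PPP1R1B, a phosphatase inhibitor, by 2.80. The 6 genes stood in the order PPP1R1B, STARD3, PGAP3, ERBB2, MIEN1 and GRB7, with TCAP (higher by 0.39) and PNMT (lower in SUM225 by 1.08) between STARD3 and PGAP3.

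On the side of PPP1R1B, the next gene gave mixed values. The representative probe set of CDK12, a kinase of transcription, was at 8.76, 8.53 and 8.64 against 8.38, 8.34 and 8.34, a difference of 0.29 that did not pass the test (adjusted p = 0.0697). Of its 6 probe sets, 2 were called higher in SUM225, by 2.75 and 1.30, and the first of these differed about as much as PPP1R1B. MED1 beyond CDK12 was lower in SUM225 by 1.0. On the other side ORMDL3, the first measured gene beyond GRB7 with a mean of at least 6, differed by 0.21 (adjusted p = 0.192), and GSDMB was at 5.13 and 5.07. MED24 (-0.18, adjusted p = 0.226) and RARA (0.01, adjusted p = 0.972) did not pass the test either. CASC3 was lower in SUM225 by 1.53 and SMARCE1 by 1.20, although another SMARCE1 probe set was higher by 0.66. TOP2A, the topoisomerase that is co-amplified in some HER2-positive tumors, was higher by 1.07. Over the 42 measured genes listed for the region, 12 were higher, 9 were lower (4 with all 18 arrays in 1 fit) and 21 did not pass, with a median difference of -0.01 beside 0.02 over all genes. These 28.6% higher and 21.4% lower stand beside 19.8% and 17.3% of all genes.

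A promoter window of ERBB2 is shown because it overlaps that of PGAP3, which lies on the opposite strand and was high together with it. The 2 windows of the RefSeq table share 136 bases, and 3 matches to CGGAAG, the core of a site for ETS transcription factors, read on either strand (CGGAAG or CTTCCG), are in capitals.
ERBB2, chr17:39687844-39688143 (GRCh38.p14), plus strand: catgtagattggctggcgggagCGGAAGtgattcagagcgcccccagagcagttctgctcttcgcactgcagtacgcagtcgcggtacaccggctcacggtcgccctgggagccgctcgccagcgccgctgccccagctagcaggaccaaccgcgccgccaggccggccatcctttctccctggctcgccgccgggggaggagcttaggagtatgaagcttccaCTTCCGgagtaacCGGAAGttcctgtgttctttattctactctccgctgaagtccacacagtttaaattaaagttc
Of all 35116 promoter windows of the same length, 19.5% held the same motif. The match describes the letters of this window and not binding in these cells. Whether ERBB2 was read from this start in either line was not tested.

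**Figure D2:**
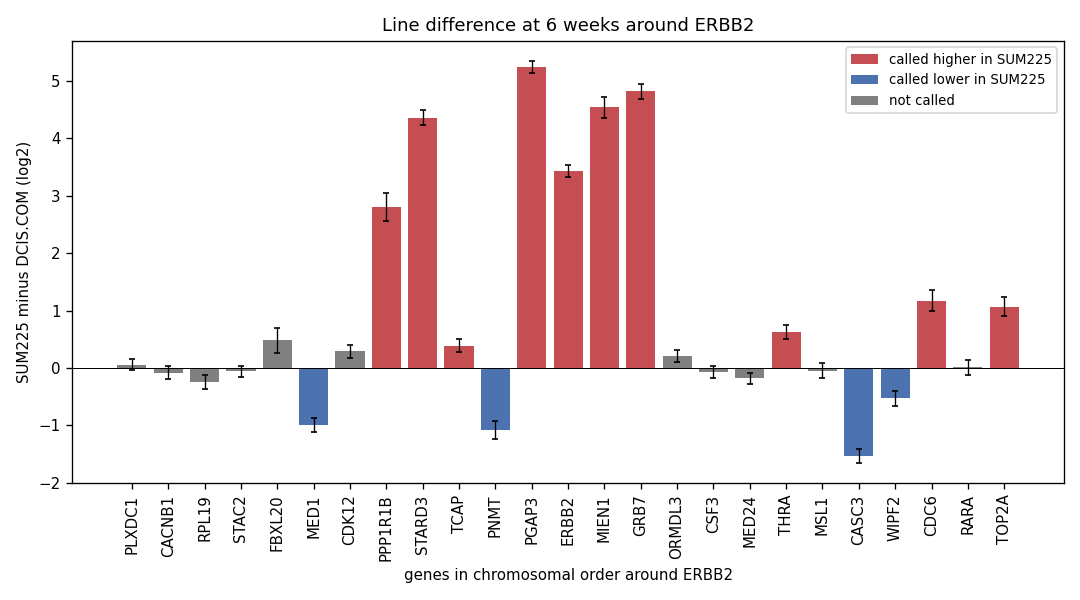
Difference between the lines at 6 weeks (SUM225 minus DCIS.COM, log2, y axis, with the standard error from limma) for ERBB2 and the 12 measured genes on either side of it in chromosomal order (x axis), of those with a mean of at least 6 over the 6 arrays. The high bars run from PPP1R1B to GRB7, with TCAP and PNMT between them, and the bars next to them are 0.21 for ORMDL3 and 0.29 for CDK12, of which 2 probe sets not drawn were higher. Each bar is the representative probe set of its gene.

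The other receptors of the family went both ways, and the ligands of EGFR were mostly higher in DCIS.COM. EGFR was at 10.03, 9.77 and 9.09 in DCIS.COM and 8.22, 7.52 and 7.63 in SUM225, higher in DCIS.COM by 1.84 ± 0.25 (adjusted p = 3.95e-04). ERBB3, the main partner of HER2, was at 9.91, 9.87 and 9.96 against 9.13, 8.98 and 9.20 and was also higher in DCIS.COM, by 0.81, whereas ERBB4 was low in both lines and higher in SUM225 by 0.99, a call that was lost without replicate 2 of SUM225 (0.83, adjusted p = 0.053 in limma). Of 10 measured ligands, 5 were lower in SUM225, 1 was higher and 4 did not pass, with a median difference of -0.55. EREG was at 11.21, 11.12 and 11.61 in DCIS.COM and 7.73, 6.80 and 6.12 in SUM225. HBEGF was higher in DCIS.COM by 3.54, TGFA by 3.38 and AREG by 2.21, all of them ligands of EGFR. EGF itself ran the opposite way, at 6.23, 5.90 and 6.22 in SUM225 and 3.21, 3.33 and 3.17 in DCIS.COM, higher by 2.88. The neuregulin NRG1, which binds ERBB3 and ERBB4, was at 6.09 and 6.30 and did not pass in its representative probe set (adjusted p = 0.461), while 1 of 5 probe sets was called lower in SUM225, by 1.62.

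Among RAS genes, feedback regulators and targets of the MAP kinase pathway, 13 of 21 were lower and 1 was higher in SUM225, with a median difference of -0.76. These 61.9% and 4.76% stand beside 17.3% lower and 19.8% higher of all genes. With all 18 arrays in 1 fit 11 were lower and 0 higher. HRAS was at 10.54, 10.26 and 10.55 in DCIS.COM and 8.06, 7.90 and 8.02 in SUM225, higher in DCIS.COM by 2.45 ± 0.12, 5.47-fold. NRAS differed more, at 10.40, 10.23 and 10.25 against 5.73, 5.51 and 5.75, by 4.63 ± 0.12 (24.7-fold), and both of its probe sets were called. PHLDA1, an early target of growth factor signaling, was higher in DCIS.COM by 4.52, the feedback inhibitor SPRY2 by 2.53, the ETS factor ETV5 by 2.17 and the phosphatase DUSP5 by 1.80. DUSP6, the phosphatase of ERK, was the 1 member higher in SUM225, by 0.85 ± 0.11, with all 3 of its probe sets called. Among the other feedback genes, SPRY4 (0.47, adjusted p = 0.508) and DUSP4 (-0.54, adjusted p = 0.0609) did not pass.

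All 8 measured basal keratins were lower in SUM225, where 17.3% of genes were, with a median difference of -3.09. KRT14 was at 13.21, 13.36 and 13.34 in DCIS.COM and 7.20, 7.61 and 7.94 in SUM225, a difference of 5.72 ± 0.17 (52.6-fold). KRT5, its usual partner, was at 10.96, 10.53 and 10.92 against 6.25, 6.05 and 5.66, a difference of 4.82 ± 0.17. KRT17 was bright in both lines, at 10.07 in SUM225, and higher in DCIS.COM by 2.82, while KRT6A (3.13), KRT6B (2.55) and KRT16 (3.06), keratins of stressed and proliferating epithelium, were higher in DCIS.COM by the values given. The luminal keratins did not mirror this, with 3 higher, 3 lower and 3 not called of 9 (33.3% each way, beside 19.8% higher and 17.3% lower of all genes). KRT8 was at 11.96 in DCIS.COM and 11.70 in SUM225 (adjusted p = 0.219) and KRT18 at 12.99 and 12.90 (adjusted p = 0.745), so the keratin pair of simple epithelium was bright in both lines. KRT23 was lower in SUM225 by 3.33 and KRT81 by 0.87, and KRT86, a hair keratin, was higher by 2.52. In whole sorted pools, fewer cells with a keratin and less of its RNA per cell cannot be told apart, here and for every gene below.

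The opposed keratins are neighbors on chromosome 17. KRT15, higher in DCIS.COM by 6.49, and KRT19, higher in SUM225 by 6.00, were next to each other in the order of the measured genes, and KRT14, KRT16 and KRT17, all higher in DCIS.COM, followed within 5 places.

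Genes that anchor basal cells were also mostly lower in SUM225. Of 9 genes of the hemidesmosome and the laminin it binds, 6 were lower (66.7%) and 0 higher, beside 17.3% and 19.8% of all genes. Their median difference was -1.75. Among the chains of that laminin, LAMB3 was at 10.99, 10.48 and 10.91 in DCIS.COM and 6.76, 6.71 and 6.46 in SUM225 (4.16), and LAMA3 was higher in DCIS.COM by 1.75. The receptor chains ITGB4 and ITGA6 were higher in DCIS.COM by 3.19 and 2.58. COL17A1, the collagen of the hemidesmosome, was low in both lines, at 5.59 and 5.52. Among 23 other basement membrane and integrin genes, 13 were lower (56.5%) and 3 higher (13.0%). ITGB6 (4.49), ITGB8 (4.37), the laminin chain LAMC1 (3.10) and the collagen IV chains COL4A1 (2.88) and COL4A2 (2.53) were higher in DCIS.COM. The other COL4A1 probe set did not pass, at 6.56 in DCIS.COM and 6.88 in SUM225 (limma adjusted p = 0.506), and that of COL4A2 was higher in DCIS.COM by only 0.58. Of 10 desmosome genes, 4 were lower (40.0%) and 0 higher. These were the 4 desmosomal cadherins of the list, DSC3, DSG3 (5.59, and 8.35 in its other probe set), DSG2 (2.38) and DSC2 (2.00), which lie together on chromosome 18. The linker proteins DSP (-0.24, adjusted p = 0.175) and JUP (-0.03, adjusted p = 0.941) did not pass.

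Of 26 luminal transcription factors and hormone receptors, 10 were higher in SUM225, 6 were lower (3 with all 18 arrays in 1 fit) and 10 did not pass, with a median difference of 0.12. These 38.5% higher and 23.1% lower stand beside 19.8% and 17.3% of all genes. By any probe set 16 were higher. TFAP2B was at 10.91, 10.93 and 11.24 in SUM225 and 5.42, 6.35 and 5.24 in DCIS.COM, higher by 5.36 ± 0.25 with all 3 of its probe sets called. XBP1, a regulator of secretory cells, was at 12.80, 12.54 and 12.76 against 8.55, 8.42 and 9.08 (4.02), and FOXA1, which opens chromatin for the hormone receptors, at 9.60, 9.37 and 9.47 against 6.16, 5.54 and 6.42 (3.44). These 3 factors did not overlap between the lines in any array, which also held for 48.8% of all genes. SPDEF was higher by 2.05, ELF5, a factor of milk-producing cells, by 2.45 and GRHL2 by 1.85. KLF5 (2.61), GRHL1 (2.74) and ELF3 (1.33) were higher in DCIS.COM. GATA3, the factor most used to mark luminal cells, was at 9.73 and 9.48 (adjusted p = 0.246), with 1 of 3 probe sets lower in SUM225 by 0.40. ESR1 was at 6.02 and 5.98 and PGR at 3.26 and 3.16 (adjusted p = 0.897 and 0.531), near or under the median level in both receptor-negative lines, although 1 of 8 ESR1 probe sets was higher in DCIS.COM, at 6.88 against 4.79.

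Of 25 basal transcription factors and markers, 12 were lower and 3 higher in SUM225, with a median difference of -0.53. Besides FOXC1, EGR3 (3.75), the caveolins CAV1 (3.38) and CAV2 (2.53), SNAI2 (3.28), the Notch ligand JAG1 (2.72), TRIM29 (2.69) and the hyaluronan receptor CD44 (1.31) were higher in DCIS.COM. Several other CD44 probe sets did not pass, such as one at 10.16 in DCIS.COM and 9.69 in SUM225 (limma adjusted p = 0.088), and none was called higher in SUM225. TP63, the master factor of basal cells, was read by 7 probe sets at levels from 3.36 to 6.62 in DCIS.COM. The representative one did not pass (adjusted p = 0.552), and the one at 6.62 in DCIS.COM was at 4.08 in SUM225 and was called. ID4 (2.21) and the Notch ligand DLL1 (2.24) were higher in SUM225. The contractile genes of myoepithelial cells, which carry basal keratins and smooth muscle proteins, did not share the single direction of the keratins. By the representative probe sets 3 of 15 were higher and 3 lower. These 20.0% each way lie near the 19.8% higher and 17.3% lower of all genes. By any probe set 6 were lower, and with all 18 arrays in 1 fit 2 were higher and 1 lower. ACTA2, smooth muscle actin, was at 7.28 in DCIS.COM and 7.17 in SUM225, and CNN1 at 5.43 and 5.39 (adjusted p = 0.772 and 0.888).

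Secretory genes of apocrine and milk-forming cells were more often higher in SUM225, in 17 of 28 (60.7%, beside 19.8% of all genes), with 3 lower and a median difference of 1.09. AGR3 was at 8.57, 8.06 and 7.52 in SUM225 and 3.33, 3.02 and 3.10 in DCIS.COM, higher by 4.90 ± 0.23, and its paralog AGR2, which folds mucins in the endoplasmic reticulum, by 3.35. The trefoil peptide TFF3 was at 10.80, 10.93 and 10.90 against 6.72, 6.23 and 6.26 (4.47). In AGR3 and TFF3 the lowest SUM225 array was above the highest DCIS.COM array, where 48.8% of all genes had no overlap in one direction or the other. FGFR4 (4.63), SERHL2 (4.27), the steroid-conjugating enzyme UGT2B28 (4.11), CLCA2 (3.46), ALOX15B (3.26) and the prolactin-induced protein PIP (3.04) were higher as well. DCIS.COM was not without such transcripts. SCGB2A2, which encodes mammaglobin, was at 14.38, 14.32 and 14.34 in DCIS.COM and 14.44, 14.46 and 14.47 in SUM225, at the top of the scale in both, and AZGP1 at 11.64 and 11.33 (adjusted p = 0.495 and 0.115). The antibacterial lipocalin LCN2 (3.05), CYP4Z1 (2.44) and HPGD (2.19) were higher in DCIS.COM, and the casein genes CSN1S1 and CSN3 and the lactalbumin gene LALBA had means of 3.30 to 4.59 in both lines.

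The epithelial genes used to select or define these cells were bright in both lines. EPCAM, the protein used for sorting, was at 12.66, 12.80 and 12.84 in DCIS.COM and 12.97, 13.04 and 12.96 in SUM225 (adjusted p = 0.152), and E-cadherin CDH1 was at 12.24, 12.43 and 12.34 in DCIS.COM and 12.53, 12.65 and 12.68 in SUM225 (adjusted p = 0.0832). Both genes were above the 99th percentile of 11.68 in all 6 arrays. Of 28 adhesion and tight junction genes, 14 were lower and 5 higher in SUM225, with a median difference of -0.43. With all 18 arrays in 1 fit these counts were 4 and 3. The claudins split, since CLDN3 was higher in SUM225 by 2.85 and CLDN1, CLDN7 and CLDN4 were lower by 1.80, 1.28 and 0.54.

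Mesenchymal genes were lower in SUM225 in 18 of 29 cases (62.1%) and higher in 1 (3.45%), beside 17.3% and 19.8% of all genes. Their median difference was -0.91. With all 18 arrays in 1 fit 14 were lower and 0 higher. Fibronectin, FN1, was at 11.63, 12.18 and 11.52 in DCIS.COM and 6.34, 7.06 and 6.88 in SUM225, a difference of 5.01 ± 0.22 with 6 of its 7 probe sets called. The crosslinking enzyme LOX (3.78), periostin POSTN (3.62), activin A subunit INHBA (3.35), SPARC (3.09) and vimentin VIM (1.69) were higher in DCIS.COM, and CCN1, a secreted matrix protein, was the member higher in SUM225, by 2.08. VIM was bright in both lines, at 11.56, 11.73 and 11.92 in DCIS.COM and 9.19, 10.49 and 10.47 in SUM225. Of the factors that repress E-cadherin, TWIST1 was higher in DCIS.COM by 2.34, in addition to SNAI2, while ZEB1 (4.82 and 4.62), SNAI1 (5.05 and 5.36) and N-cadherin CDH2 (5.54 and 5.51) did not pass (adjusted p = 0.235, 0.09 and 0.906).

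No protease or plasminogen gene of 27 was higher in SUM225 and 19 were lower (70.4%), where 19.8% and 17.3% of all genes were. The median difference was -1.50. The kallikrein KLK6, a secreted serine protease, was at 11.38, 10.83 and 11.41 in DCIS.COM and 6.25, 6.00 and 5.83 in SUM225, and its relative KLK10 at 9.01, 8.89 and 8.82 against 4.65, 4.19 and 4.38. CTSV, a lysosomal cysteine protease, was higher in DCIS.COM by 5.07 ± 0.18, and MMP7, matrilysin, was at 9.96, 10.00 and 10.03 against 4.92, 5.38 and 5.75 (4.64). In each of these 4 genes, picked for their large differences, every DCIS.COM array was above every SUM225 array. Arrays of the lines did not overlap for 48.8% of all genes. The urokinase receptor PLAUR (3.10), urokinase PLAU (2.64), MMP9 (2.47) and CTSB (3.14) were higher in DCIS.COM together with the inhibitors SERPINE2 (4.97) and TIMP1 (3.40). MMP14, the membrane-bound activator of MMP2, was at 8.84 and 8.96 (adjusted p = 0.809) with 1 of 4 probe sets lower in SUM225 by 0.72, and MMP1 did not pass (adjusted p = 0.0594). Genes of squamous differentiation were lower in SUM225 in 15 of 26 cases (57.7%) and higher in 1 (3.85%). Higher in DCIS.COM were, among others, SERPINB2 (4.48), SPRR1B (4.46), the elastase inhibitor PI3 (4.08) and SERPINB5 (3.04).

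Proliferation genes were the reverse, with 19 of 30 higher in SUM225 (63.3%, beside 19.8% of all genes), 0 lower and a median difference of 0.58. The differences were small beside those above. With all 18 arrays in 1 fit 7 were higher, and 3 members had some probe set lower in SUM225. PCNA, the sliding clamp of replication, was at 11.99, 11.64 and 11.80 in SUM225 and 9.50, 9.61 and 9.95 in DCIS.COM (2.13 ± 0.15), MCM5 of the replicative helicase was higher by 1.95 and MCM2 by 1.24. FOXM1, a transcription factor of dividing cells, was higher by 0.91 and the mitotic kinase CDK1 by 0.85. MKI67, which encodes the Ki-67 antigen, was at 7.89, 7.44 and 7.83 in SUM225 and 7.63, 7.61 and 7.51 in DCIS.COM and did not pass (adjusted p = 0.545). Among 22 regulators of G1, 9 were higher and 2 lower (5 and 1 with all 18 arrays in 1 fit). These 40.9% and 9.09% stand beside 19.8% and 17.3% of all genes. Cyclin E2, CCNE2, was at 9.82, 9.22 and 9.56 in SUM225 and 5.92, 6.08 and 6.34 in DCIS.COM (3.42 ± 0.17), the RB relative RBL2 was higher by 1.88, and CDK6, with all 7 of its probe sets called, by 1.37, while cyclin D1 gave no clear direction, with its brightest probe set not past the test (CCND1, -0.46, adjusted p = 0.0562) and the other higher by 1.09.

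CDKN2A, CDKN2B and MTAP lie together on chromosome 9 and are known to be lost in the MCF10A lineage. CDKN2A, which encodes the inhibitors p16 and ARF, was at 6.14, 5.95 and 6.43 in SUM225 and 4.63, 4.63 and 4.48 in DCIS.COM, higher by 1.60 ± 0.14. The representative probe sets of CDKN2B (5.06 and 4.97) and MTAP (5.47 and 5.52) did not pass (adjusted p = 0.632 and 0.823), but 1 of 2 for CDKN2B and 4 of 6 for MTAP were higher in SUM225, by 2.50 for CDKN2B and by up to 2.97 for MTAP. No probe set of the 3 genes shown here exceeded a mean of 6.18 in either line.

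Of the Wnt ligands, receptors and antagonists, 8 of 45 were higher (17.8%) and 7 lower (15.6%) in SUM225, near the 19.8% and 17.3% of all genes. The median difference was 0.05, and 4 were higher with all 18 arrays in 1 fit. Besides SFRP1, the receptors FZD7 (3.70) and FZD8 (2.45) were higher in DCIS.COM, and the ligand WNT5A (2.03), which mostly signals without β-catenin, and the receptor FZD4 (1.22) were higher in SUM225. FZD7 was at 9.54, 10.06 and 9.79 in DCIS.COM and 6.27, 5.73 and 6.28 in SUM225. Of 33 intracellular members and targets, 12 were lower (36.4%) and 4 higher (12.1%), and 6 and 2 with all 18 arrays in 1 fit. CTNNB1, which encodes β-catenin, was at 9.13, 9.33 and 9.46 in DCIS.COM and 6.59, 6.61 and 6.68 in SUM225 in its only named probe set, a difference of 2.68 ± 0.12. Among the transcription factors that bind β-catenin, TCF7L2 was higher in DCIS.COM by 1.60 and LEF1 by 0.93, while TCF7 did not pass (adjusted p = 0.888). BCL9, the β-catenin cofactor on which the study centered, was at 7.72, 7.58 and 7.64 in DCIS.COM and 7.42, 7.27 and 7.30 in SUM225, lower in SUM225 by 0.31 ± 0.11 with an adjusted p of 0.0496. This call was lost whichever of the 6 arrays was left out, with differences of -0.28 to -0.36 and adjusted p-values of 0.058 to 0.15 in limma. Its paralog BCL9L was at 6.94 and 6.82 (adjusted p = 0.626), and MYC at 9.32 and 9.39 (adjusted p = 0.901). AXIN2, a common target, was at 5.92 and 5.99 in its representative probe set (adjusted p = 0.794), while 1 of its 4 probe sets was called higher in SUM225, by 1.89.

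Chemokines and cytokines were more often higher in DCIS.COM, and interferon-stimulated genes leaned toward SUM225 with exceptions. Of 23 chemokines and cytokines, 12 were lower and 4 higher in SUM225 (2 higher with all 18 arrays in 1 fit). These 52.2% and 17.4% stand beside 17.3% lower and 19.8% higher of all genes. CXCL1, a neutrophil chemokine, was at 13.69, 12.94 and 13.10 in DCIS.COM and 8.71, 8.45 and 7.63 in SUM225 (4.98 ± 0.28). IL18 was at 8.57, 8.66 and 8.95 against 3.45, 3.27 and 3.17 (5.43) and CCL20 at 12.47, 11.35 and 12.08 against 6.97, 6.62 and 6.42 (5.30). CXCL3 (4.18) and the IL-6 family cytokine LIF (3.51) were higher in DCIS.COM too, whereas CXCL8, also a neutrophil chemokine, was bright in both lines, at 13.27 and 13.46 (adjusted p = 0.497). IL1A gave no clear direction, since 1 probe set was higher in SUM225 by 1.66 and the other lower by 1.42. Of 22 interferon-stimulated genes, 10 were higher (45.5%) and 5 lower (22.7%) in SUM225, with a median difference of 0.36. With all 18 arrays in 1 fit 6 were higher and 2 lower. IFIT1 was at 8.47, 7.50 and 7.89 in SUM225 and 4.82, 4.38 and 4.17 in DCIS.COM (3.50 ± 0.24), and IFI27 (3.31), MX1 (3.28), IFIT2 (2.93), IFI6 (2.22) and the chemokine CXCL10 (2.24) were higher. OAS1 (1.66) and IFITM3 (0.91) of the same list were lower in SUM225.

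Of the 24 genes of HLA and antigen processing, 3 were higher (12.5%), 4 lower (16.7%) and 17 not past the test. Among all genes, 19.8% were higher and 17.3% lower. With all 18 arrays in 1 fit 0 of the 24 were higher and 2 lower. HLA-B (0.31, adjusted p = 0.339) and HLA-C (0.67, adjusted p = 0.0526) did not pass in their representative probe sets, while 1 other probe set of each was higher in SUM225, by 0.38 and 0.42. TAP2, a peptide transporter, was higher in DCIS.COM by 2.11. B2M was lower in SUM225 by 0.52 in its brightest probe set, and a dim one was higher by 1.32.

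Genes of hypoxia and glycolysis were more often lower in SUM225, while those of lipid synthesis went both ways. Of 23 hypoxia and glycolysis genes, 16 were lower (69.6%) and 3 higher (13.0%) in SUM225, beside 17.3% and 19.8% of all genes. Their median difference was -0.96. The carbonic anhydrase CA12 was at 11.84, 11.80 and 11.78 in DCIS.COM and 7.56, 7.0 and 7.12 in SUM225 (4.58 ± 0.15) with all 7 of its probe sets called, and hexokinase HK2 was at 11.98, 11.93 and 12.04 against 9.04, 8.77 and 8.27 (3.29). EGLN3 (2.07) and ALDOA (0.75) were higher in SUM225, and VEGFA did not pass in its representative probe set (-0.18, adjusted p = 0.285) but was higher in 2 of 4, by 0.69 and 1.17. With all 18 arrays in 1 fit 9 of the hypoxia and glycolysis genes were lower and 1 was higher. Of 22 genes of fatty acid and cholesterol synthesis, 10 were higher (45.5%) and 8 lower (36.4%), and 4 and 1 with all 18 arrays in 1 fit. The malic enzyme ME1 (2.35), squalene epoxidase SQLE (2.30) and fatty acid synthase FASN (1.89) were higher in SUM225, while the elongase ELOVL6 (0.90) was higher in DCIS.COM. Of 15 oncofetal and stem cell genes, 6 were higher (40.0%) and 4 lower (26.7%). ALDH1A1 was at 9.92, 9.08 and 9.60 in SUM225 and 5.63, 4.64 and 6.44 in DCIS.COM (3.96), its relative ALDH1A3 was higher in DCIS.COM by 2.31, and LIN28B, a repressor of let-7 microRNAs, was at 7.35, 6.90 and 7.11 in SUM225 and 3.02, 3.66 and 3.70 in DCIS.COM (3.66).

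**Figure D3:**
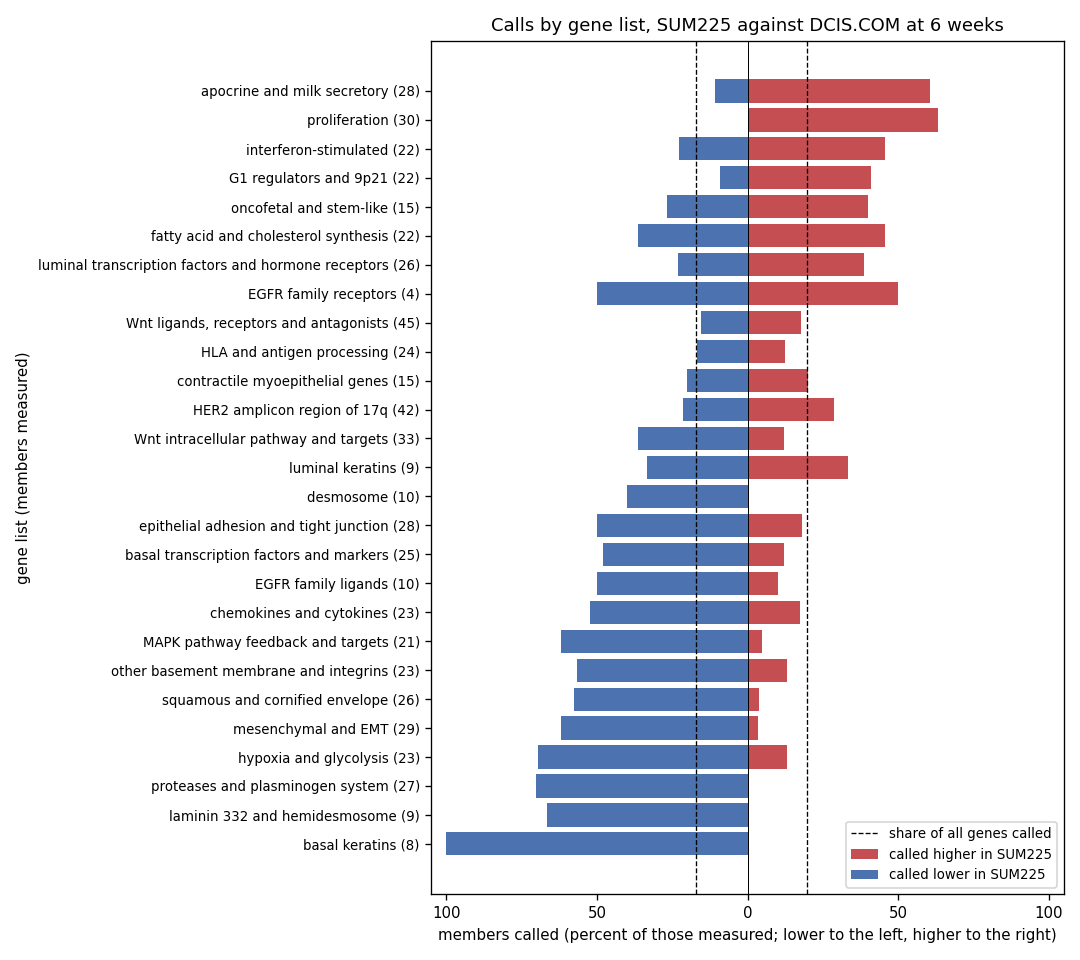
Share of the measured members of each of 27 gene lists (y axis, number of members in brackets) called higher (right) or lower (left) in SUM225 at 6 weeks (x axis, percent), in the order of the median difference of the list. The dashed lines stand at the 19.8% and 17.3% of all genes called, and the bars of the basal keratin, hemidesmosome, protease and desmosome lists lie wholly on the left.

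Markers of host cell types were read by human probes, which see mouse transcripts only as far as these bind them, so their levels give no measure of the share of mouse cells. Of 35 measured markers of fibroblasts, endothelium, leukocytes, erythroid cells, adipocytes and muscle, 22 had a mean under 6 in both lines, 3 were higher, 4 were lower and 28 did not pass. Among all genes, 19.8% were higher and 17.3% lower. The leukocyte marker PTPRC was at 4.16 and 4.14 and the endothelial marker CDH5 at 4.38 and 4.66. The array medians over the fibroblast list lay between 5.98 and 6.25 in DCIS.COM and between 6.18 and 6.97 in SUM225, and over the endothelial list between 5.32 and 5.50 and between 4.56 and 5.11. Those of the leukocyte, erythroid, adipocyte and muscle lists lay between 4.67 and 5.89 in DCIS.COM and between 4.27 and 6.03 in SUM225. Those past the test were PECAM1 (2.81), KDR (1.51), CD14 (1.45) and TTN (0.66), higher in DCIS.COM, and MB (2.07), COL1A2 (1.91) and HBB (0.60), higher in SUM225. COL1A1 was not called by its representative probe set, but 2 of its 5 probe sets were higher in SUM225, by 1.88 and 1.27. The part of host RNA in the differences above was not tested.

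Calls were unevenly spread over the chromosomes. Over 17406 genes with a place in the RefSeq annotation, 20.6% were higher and 18.3% lower in SUM225. On chromosome 16, which carries TOX3, 328 of 745 genes were higher (44.0%) and 42 were lower (5.64%), and the median difference of its genes was 0.28. Chromosome 20, with 30.3% higher and 7.71% lower, and chromosome 22, with 29.9% and 10.2%, leaned the same way. Chromosome 18, which carries the desmosomal cadherins, was the opposite, with 6.69% of 254 genes higher and 35.0% lower, and chromosome 15 had 14.9% higher and 31.5% lower. Chromosome 17, home of ERBB2, did not lean toward SUM225, with 13.8% higher and 20.4% lower.

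Within chromosomes, some genes of one direction lay in stretches. Among 10697 placed genes with a mean of at least 6 over the 6 arrays, 66 runs of 5 or more neighbors were all higher in SUM225 and 58 were all lower. Of these genes 2910 were higher and 2735 lower, and how many runs such shares give without any clustering was not tested. A run of 11 genes on chromosome 16 from BRD7 to IRX5 held TOX3, RBL2 and CYLD and had a median difference of 1.77. A run of 12 genes on the X chromosome from MTM1 to ZNF185 held MAGEA3, MAGEA12, MAGEA6 and MAGEA10 (median 1.71). Chromosome 8 had runs of both kinds, with 13 genes from GEM to PTDSS1, CCNE2 and ESRP1 among them, higher in SUM225 (median 1.21), and 12 genes from PRAG1 to LONRF1, CTSB and FDFT1 among them, lower (median 1.81 as DCIS.COM minus SUM225). No test was made of these stretches, and DNA copy number was not analysed here.

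**Figure D4:**
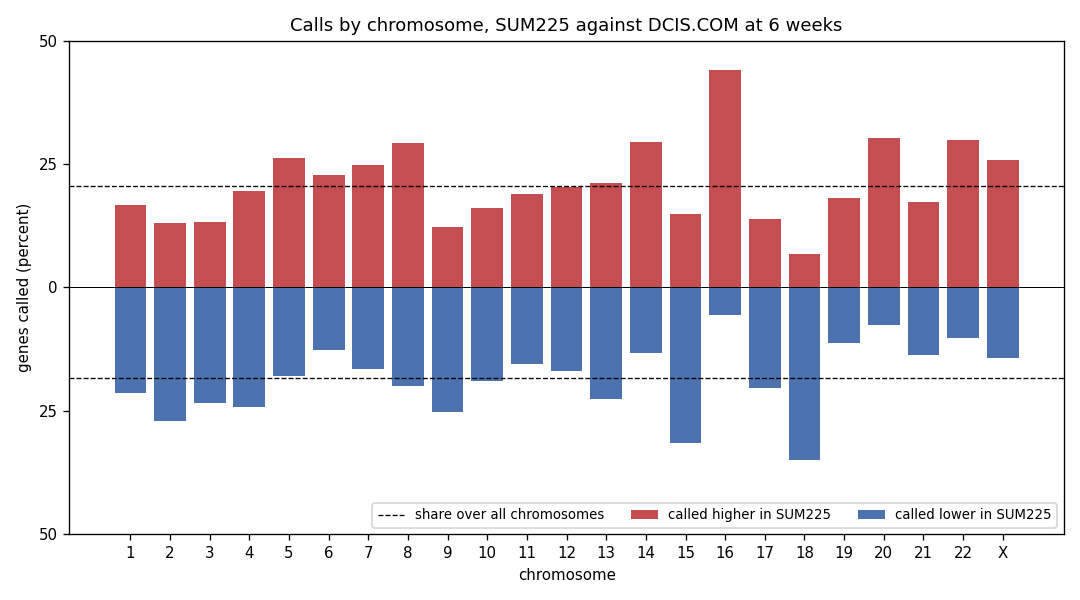
Share of the genes of each chromosome (x axis) called higher in SUM225 (up) or lower in SUM225 (down) at 6 weeks (y axis, percent). The dashed lines stand at the 20.6% and 18.3% over all chromosomes, which chromosome 16 exceeds upward at 44.0% and chromosome 18 downward at 35.0%.

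The same comparison at 10 weeks, which shares no array with that at 6 weeks, gave nearly the same genes. At 10 weeks 3135 genes were higher and 3033 lower in SUM225 (32.3% called). Of the genes higher at 6 weeks, 2862 of 3776 (75.8%) were called higher again, beside 16.4% of all genes called higher at 10 weeks, and of those lower, 2673 of 3297 (81.1%), beside 15.9%. Of 2908 genes called with at least a 2-fold difference, 2841 (97.7%) were called in the same direction at 10 weeks and 1 in the opposite one. The differences at both times correlated at 0.966 across genes, which are not independent replicates. ERBB2 differed by 3.92 at 10 weeks, KRT19 by 5.49 and MAGEA6 by 8.71, and KRT14 was higher in DCIS.COM by 5.70. At 10 weeks 8 of 8 basal keratins and 16 of 27 protease genes were lower and 16 of 28 secretory genes and 15 of 30 proliferation genes were higher in SUM225. The counts of other lists differed more between the times, which is not a test of a change. Of 29 mesenchymal genes, 12 were lower at 10 weeks beside 18 at 6 weeks. Interferon-stimulated genes had 13 higher and 1 lower beside 10 and 5, and lipid synthesis genes 11 and 3 beside 10 and 8. BCL9 did not pass at 10 weeks (-0.14, adjusted p = 0.492).

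The difference between the lines itself changed from 6 to 10 weeks for 10 probe sets of 54613 (0.0183%, interaction in limma over the 12 arrays, adjusted p under 0.05), and 1858 had an unadjusted p under 0.05. The count was 23 without replicate 2 of the 10-week DCIS.COM arrays and 19 without replicate 1 of the 10-week SUM225 arrays. H19, an imprinted noncoding RNA, was at 11.15, 10.96 and 11.34 in SUM225 and 7.97, 7.47 and 7.82 in DCIS.COM at 6 weeks, and at 12.15, 12.49 and 12.68 against 5.85, 6.49 and 5.52 at 10 weeks. Its line difference was thus 3.39 at 6 weeks and 6.48 at 10 weeks (interaction adjusted p = 0.00293). TKTL1, a transketolase-like gene, went from 2.05 to 4.82 in a probe set that is not its representative one, which did not pass. NIBAN1, a stress response gene, went the other way, from 4.16 to 1.73, as DCIS.COM moved from a mean of 5.67 at 6 weeks to 8.03 at 10 weeks while SUM225 was at 9.82 and 9.76. ART3 went from 1.97 to 0.58, and PROS1, the anticoagulant protein S, from 1.42 to 2.93 as DCIS.COM minus SUM225. The remaining 5 probe sets carry several symbols each and were at 6.48 to 7.41 in SUM225 at 10 weeks, after 4.50 to 5.32 at 6 weeks. CYP4Z1 was higher in DCIS.COM by 2.44 at 6 weeks and differed by 0.06 at 10 weeks, but its interaction did not pass (adjusted p = 1).

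**Figure D5:**
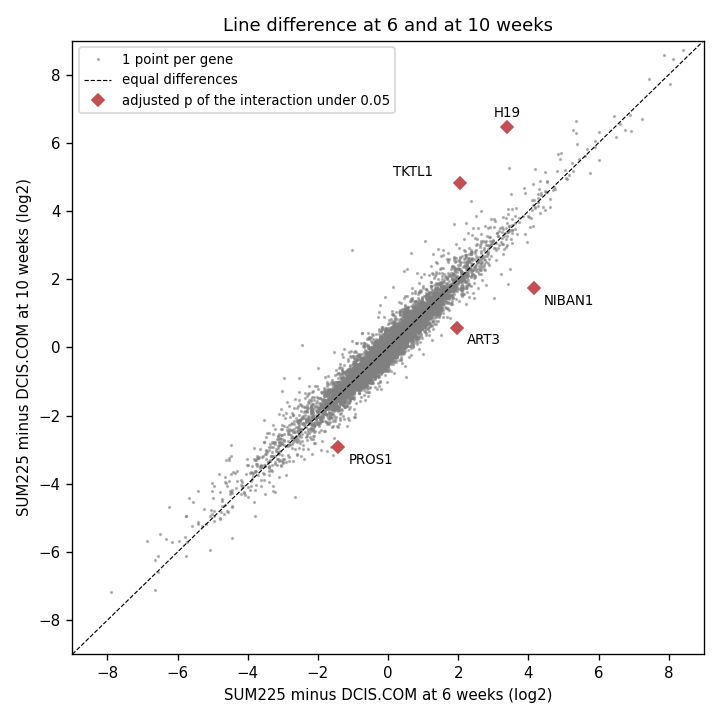
Line difference at 10 weeks (y axis, SUM225 minus DCIS.COM, log2) against that at 6 weeks (x axis) with 1 point per gene, the line of equal differences dashed, and the named probe sets whose difference changed between the times as diamonds. Most genes lie along the line, with H19 and TKTL1 above it and NIBAN1, ART3 and PROS1 below it. The diamond of TKTL1 is not its representative probe set.

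Against 2 weeks, the line difference changed for 459 probe sets (0.84% of those tested), 251 of them toward SUM225. This count rests on the 2-week SUM225 arrays, which correlated with each other at only 0.76 to 0.926. It was 23716 without replicate 1 of the 2-week SUM225 arrays and 149 to 410 without any other single array, so no gene is named from it.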

How the data were processed

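RNA was amplified with a 3′ labelling kit and hybridised to human U133 Plus arrays. The authors normalized the arrays in Partek with RMA and deposited log2 values, 1 table of 54675 probe sets by 18 arrays; the build and annotation version are not given in the sources used here. The authors' comparison tables, whose columns hold fold changes (a ratio and a signed score) and q-values in percent, were used only for the gene names deposited in them, and the Wnt tables were not used. After 62 control probe sets were left out, 54613 were tested. Names came from 36786 probe sets with 1 symbol, while 866 with several and 52 with a date in place of a symbol were left unnamed and 16909 were in neither name table. Each of 19107 genes (91.3% current or updated in RefSeq) was read from whichever of its named probe sets was brightest on average over the 18 arrays. No column of another series was present.

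Lines were compared on the deposited log2 values with limma 3.58.1 in R 4.3.3 (lmFit and eBayes), without covariates, over the 6 arrays of 6 weeks, and p-values were adjusted by Benjamini-Hochberg over all probe sets. The 10-week comparison used the other 6 arrays, and interactions used 12 arrays. Named genes are the 15 with the largest differences each way among called genes with no overlap between the arrays of both lines and a mean of 6 or more in the higher one, the leading genes of each list and up to 6 further called members a list. MAGE relatives and neighbors of named genes were added after their values were seen. XIST and Y-linked genes were left out. Some members counted in the lists are not reported by name here. The comparison, the members and the gene lists were chosen with earlier results of these data known. Alternatives were SAM, another scaling, a filter on dim probe sets, all 18 arrays in 1 fit, other variance moderation, array weights, a replicate block, leaving out each array, another call rule and another probe set per gene. The scripts were tested on simulated data. Tables and figures were made in Python 3.11.15 with pandas 2.3.3, numpy 2.4.6, scipy 1.17.1 and matplotlib 3.10.9.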

Additional observations from a re-analysis of the deposited data

Results flagged for a closer look

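The line difference at 6 weeks departed from that at 10 weeks for 10 probe sets, by a test of the difference itself (limma interaction, adjusted p under 0.05). On the log2 scale, the 6-week difference minus the 10-week difference was -3.09 for H19 and -2.77 for TKTL1, whose contrasts toward SUM225 were larger at 10 weeks. The TKTL1 value is not of its representative probe set, which did not pass. It was 2.43 for NIBAN1 and 1.39 for ART3, whose contrasts toward SUM225 were smaller at 10 weeks, and 1.51 for PROS1, whose contrast toward DCIS.COM was larger at 10 weeks. Against 2 weeks the test of the difference passed for 459 probe sets. Both tests share the 6-week arrays.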

How the results depend on the processing

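Of 410 measured genes of the lists and the named rule, 315 were called at 6 weeks, and none lost its direction in any alternative except B2M, which read 1.32 in place of -0.52 with the probe set of largest variance. With all 18 arrays in 1 fit, 66 of them lost their call and 26 of 66 list counts moved by over 1.5 times, and the count of probe sets fell from 16233 to 8905 (4430 higher, 4475 lower). That fit takes in the 2-week SUM225 arrays, which correlated at 0.76 to 0.926. A rule of at least 2-fold left 6343 (3050 higher, 3293 lower). Leaving out 1 array gave 13396 to 15527 probe sets at 6 weeks (6908 to 8145 higher, 6300 to 7480 lower), 10756 to 15523 at 10 weeks, 7 to 23 in the interaction of 6 and 10 weeks and 149 to 23716 in that of 6 and 2 weeks. It moved 10 of 66 list counts by over 1.5 times, none above 5 in the main comparison. The interaction of 6 and 10 weeks held for 3 probe sets with all 18 arrays in 1 fit. The interaction of 6 and 2 weeks held for 223 after another quantile normalization, 151 at a mean of at least 5, 922 with all 18 arrays and 36810 with array weights, whose estimation did not converge in a fit with 2-week arrays, and for 350 without replicates 2 and 3 of the 2-week SUM225 arrays, a setting chosen after seeing the data. The cause was not tested.

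The labels do not say whether same-numbered arrays of the lines were paired, and the main comparison did not use the numbers. Deviations of same-numbered arrays correlated at 0.06, 0.242 and 0.065 at 6 weeks, beside -0.318 to 0.199 for the other pairs. At 10 weeks they correlated at 0.198, 0.071 and 0.083, beside -0.267 to 0.256. These few values cannot settle whether the arrays were paired. With the replicate block 16990 probe sets were called (8853 higher, 8137 lower), 8 of the 410 genes gained a call and 3 lost one. The block gave 15066 probe sets at 10 weeks, 13 in the interaction of 6 and 10 weeks and 390 in that of 6 and 2 weeks.

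Low RMA levels have no detection call, and 3 arrays per line limit the precision. The values describe 1 cell line per tumor class and pools of 5 mice.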
